A study of Mus musculus with 8 samples.

Results

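Ciart, Bhlhe40 and Bhlhe41 encode 3 repressors that act on E-boxes, the DNA elements through which the clock activators CLOCK and ARNTL switch on their target genes. They were read in primary mouse embryonic fibroblasts (MEFs), cells grown directly from embryos. Members are all probe sets of the array annotated to 1 of these genes alone. Each gene had 1 such probe set, so the members are 3 probe sets among the 30506 deposited, of which 24838 are annotated to a single gene (13307 genes in all). The study compared 4 wild-type (WT) lines with 4 lines of genotype Cry1-/-, Cry2-/- (Cry DKO), which lack both cryptochromes, 1 Affymetrix array per line. The series describes the lines as independent. All lines came from embryos of a near-C57BL/6J background and received no treatment. They proliferated without synchronisation in DMEM/F10 medium with 10% fetal calf serum at 3% oxygen, so a value averages over cells at any phase of the clock. The labels give no sex or age of the embryos.

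In the clock, CLOCK and ARNTL bind E-boxes as a pair and activate genes whose products feed back on them. The period and cryptochrome proteins form the main repressing complex. BHLHE40 (DEC1) and BHLHE41 (DEC2) are basic helix-loop-helix proteins that bind the E-box themselves and repress from it. CIART (CHRONO, listed earlier as Gm129) has no such domain and represses by binding the activators. All 3 genes are also known targets of CLOCK and ARNTL. BHLHE40 responds to many other inputs in fibroblasts, among them low oxygen and serum.

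Values are array signals on a log2 scale; the base is an inference from their span of 0.0675 to 14.3. Differences are Cry DKO minus WT with SE, groups are mean ± SD, and n = 4 lines per genotype throughout. A probe set or gene is said to have risen or fallen, and is counted as called, where limma gave an adjusted p under 0.05 (Benjamini-Hochberg over all 24838 probe sets). The targeted genes do not check the genotype labels: Cry1 differed by -0.50 (SE 0.21) and Cry2 by -0.34 (SE 0.13), neither passed (limma adjusted p = 0.217 and 0.186), and the place of their probes relative to the deleted parts is not stated in the labels. Of 11 fibroblast markers on the table none was called and 8 lay above the 40th percentile of the mean signals of all probe sets other than controls (6.05), with Pdgfra, Dcn and Lum below it. All 4 endothelial markers on the table lay below it. No fibroblast marker had a difference above 0 (median -0.17, against -0.0038 over all genes). The fibroblast marker mean ran from 10.95 to 11.22 in WT and from 10.81 to 10.94 in Cry DKO lines.

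Promoter sequences were matched by symbol for Ciart and Bhlhe41 in RefSeq windows of build GRCm38.p6. They are shown because the E-box is the element that these genes share with the other CLOCK and ARNTL targets. Each is given on the gene's strand, here the minus strand, 5′ to 3′, upstream of the annotated gene (chr3:95882258-95882478 for Ciart, chr6:145865421-145865670 for Bhlhe41), with the letters CACGTG in capitals.
Ciart: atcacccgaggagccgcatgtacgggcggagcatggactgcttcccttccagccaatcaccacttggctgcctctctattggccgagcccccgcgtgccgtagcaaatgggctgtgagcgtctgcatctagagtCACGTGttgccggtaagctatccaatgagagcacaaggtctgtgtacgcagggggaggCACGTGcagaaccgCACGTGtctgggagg
Bhlhe41: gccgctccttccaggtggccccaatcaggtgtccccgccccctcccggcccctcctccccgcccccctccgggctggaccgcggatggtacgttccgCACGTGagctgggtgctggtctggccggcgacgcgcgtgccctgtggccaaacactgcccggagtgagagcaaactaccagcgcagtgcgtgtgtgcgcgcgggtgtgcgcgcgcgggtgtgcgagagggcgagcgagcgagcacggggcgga

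The Ciart stretch of 221 bases held CACGTG 3 times, with first bases 116, 58 and 44 bases before the annotated start site of its window (chr3:95882228). That site lies inside the annotated gene, so the printed stretch ends upstream of it. The Bhlhe41 stretch of 250 bases held it once, 153 bases before the start site. Over all 32851 RefSeq windows of 300 bases (250 before to 50 after a start site), 7.15% held CACGTG at least once and 0.0883%, or 29 windows, at least 3 times. The palindrome reads the same on both strands. It also holds ACGTG, the core of the hypoxia response element, on each strand: the 6 matches to ACGTG in the Ciart window and the 2 in the Bhlhe41 window all lie within CACGTG, and 19.6% of windows held ACGTG. Neither window held the E-box-like CACGTT (4.68% of windows), the D-box TTATGTAA (0.938%) or the cAMP response element TGACGTCA (1.79%), each searched on both strands. A match describes these letters and is not a binding site.

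**Figure D1:**
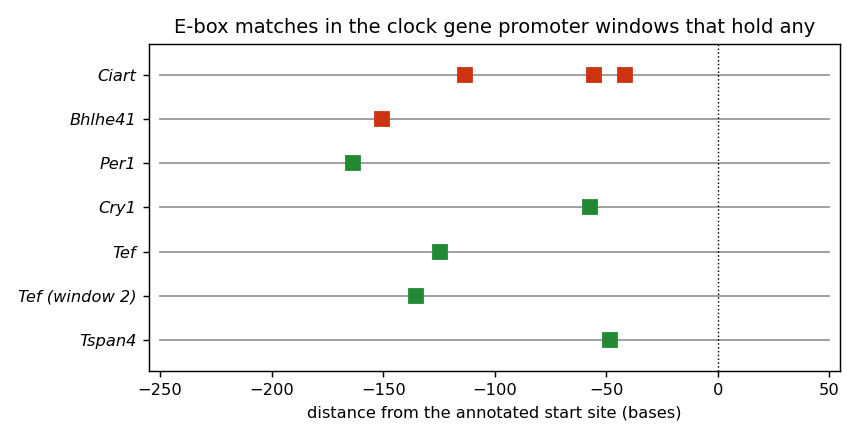
Position of CACGTG (squares) relative to the annotated start site (dotted line, x axis in bases) in the RefSeq promoter windows of the clock genes that hold it, with Ciart and Bhlhe41 in red and other clock genes in green. The Ciart window holds 3 matches, and each other window drawn holds 1.

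The comparison of Cry DKO with WT lines asks how the signals of these repressors differ between lines without and with cryptochromes. The activity of CLOCK and ARNTL was not measured. Ciart rose 3.48-fold and Bhlhe40 rose 1.46-fold, while Bhlhe41 gave a dim signal that did not pass. Of the 3 members, 2 were called higher, where 2.18% of all probe sets were called higher and 3.99% in either direction (992 of 24838). The 3 members were chosen with earlier results of these data known, so this count is a description.

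Ciart had signals of 6.36, 6.28, 5.68 and 6.17 in WT lines 1 to 4. In Cry DKO lines 1 to 4 it had 7.84, 7.93, 7.85 and 8.06. Every Cry DKO line lay above every WT line, and the lowest Cry DKO value exceeded the highest WT value by 1.49. WT lines averaged 6.12 ± 0.30 (SD, n = 4) and Cry DKO lines 7.92 ± 0.10. The difference was 1.80 (SE 0.14, 95% confidence interval 1.48 to 2.11, limma adjusted p = 8.84e-05), or 2.80-fold to 4.33-fold on the linear scale. Among the 24838 probe sets Ciart had the 20th highest rise, the 7th smallest p and the 5th widest gap between groups. The exact two-sided permutation test over the 70 assignments of lines gave p = 0.0286, the smallest value it can give. WT line 3 was the lowest and widened the difference: without it the difference was 1.65 (SE 0.11, limma adjusted p = 4.21e-05).

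Bhlhe40 had signals of 9.12, 8.89, 9.05 and 9.26 in WT lines 1 to 4. In Cry DKO lines 1 to 4 it had 9.53, 9.61, 9.61 and 9.73. The groups did not overlap, but here the gap was narrow, 0.27 between WT line 4 and Cry DKO line 1. Groups that do not overlap with Cry DKO higher were found for 5.99% of all probe sets. The means were 9.08 ± 0.16 (SD, n = 4) and 9.62 ± 0.08. The difference was 0.54 (SE 0.08, 95% confidence interval 0.36 to 0.72, limma adjusted p = 0.0043), a rise of 1.29-fold to 1.65-fold. By size of the rise Bhlhe40 stood at place 1212, and by p at place 136. The exact permutation p was 0.0286, again the smallest possible.

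Bhlhe41 had signals of 4.25, 4.45, 4.79 and 4.34 in WT lines 1 to 4. In Cry DKO lines 1 to 4 it had 4.37, 3.75, 4.43 and 4.13. The groups overlapped: Cry DKO lines 1 and 3 lay within the WT range. The means were 4.46 ± 0.23 (SD, n = 4) and 4.17 ± 0.31, a difference of -0.28 (SE 0.27, 95% confidence interval -0.86 to 0.29, limma adjusted p = 0.629; exact permutation p = 0.229). The mean signal stood at percentile 17.7 of all probe sets other than controls, below the 40th percentile, where Bhlhe41 was the only member. In this dim range a difference is hard to read: lines of 1 genotype spread with a median SD of 0.55 where the mean signal was under 5, against 0.10 where it was over 9, and 0.40% of the dim ones were called. The interval does not reach the Bhlhe40 rise. Without detection calls, it cannot be told whether this probe set measured transcript or background in these cells.

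**Figure D2:**
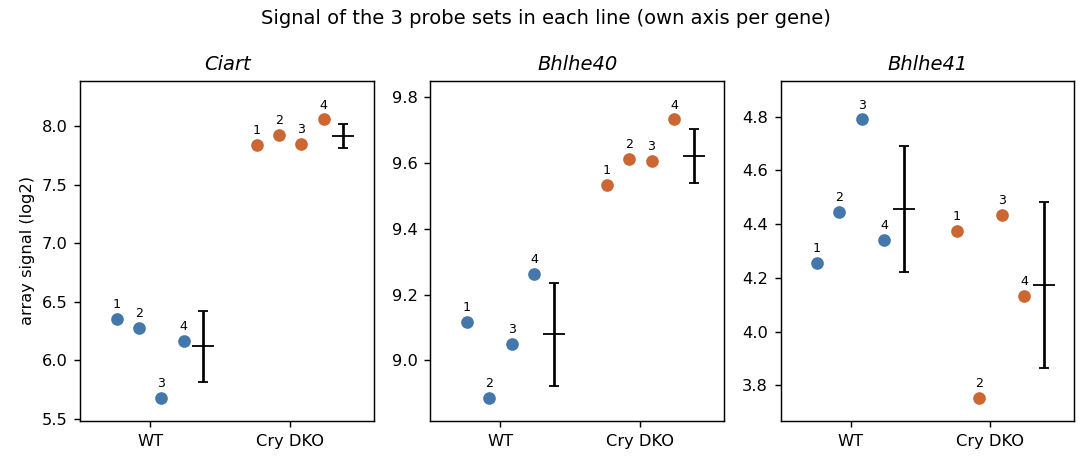
Array signal (log2, own y axis per gene) of the probe sets of Ciart, Bhlhe40 and Bhlhe41 in each of the 4 WT lines (blue) and 4 Cry DKO lines (orange), numbered by replicate, with mean ± SD as bars. For Ciart and Bhlhe40 all Cry DKO lines lie above all WT lines, with gaps of 1.49 and 0.27, and for Bhlhe41 the groups overlap.

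**Figure D3:**
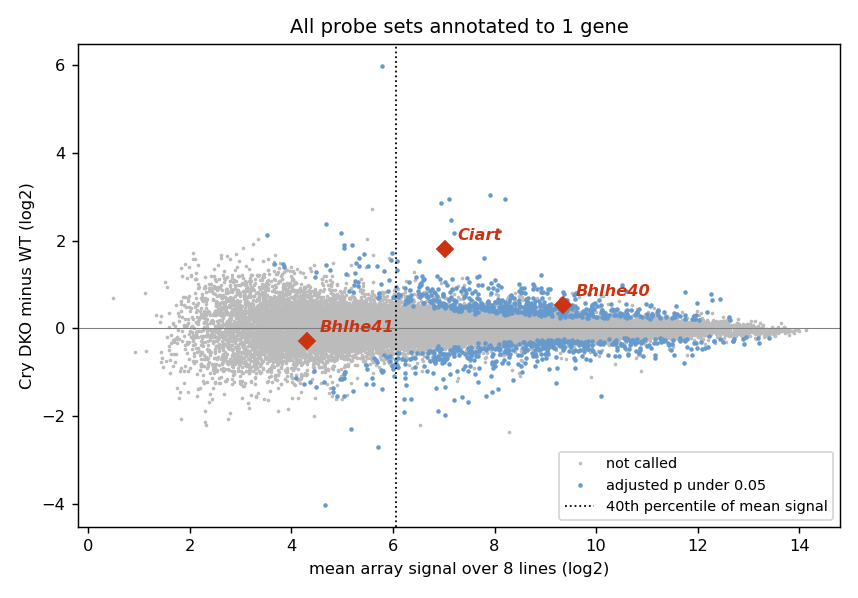
Cry DKO minus WT (log2) against the mean signal over 8 lines (log2) for the 24838 probe sets annotated to 1 gene, with the 992 called ones in blue and the 3 members as red diamonds. Ciart lies well outside the cloud at a medium signal, Bhlhe40 at the upper edge at a high signal, and Bhlhe41 inside the cloud left of the 40th percentile (dotted line).

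Whether the members moved by different amounts was tested on the difference between genes within each line (3 pairs, exact two-sided permutation tests, adjusted over the pairs). The Ciart rise exceeded that of Bhlhe40 by 1.26 on the log2 scale (adjusted exact p = 0.0286). Within lines, Ciart minus Bhlhe40 ran from -3.37 to -2.61 in WT and from -1.76 to -1.67 in Cry DKO lines. The pair kept a nearly constant ratio in the Cry DKO lines (SD 0.04) and a looser one in WT lines (SD 0.34). Against Bhlhe41 the difference between genotype effects was 2.08 for Ciart and 0.83 for Bhlhe40, both at an adjusted exact p of 0.0286, but these values are set against a probe set that may show background alone. Without Cry DKO line 2 the value for Bhlhe40 against Bhlhe41 was 0.69 and missed the threshold (adjusted exact p = 0.0571). All 3 p-values at 0.0286 are the smallest this design can give.

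The spread between lines also differed by gene. Ciart had an SD of 0.30 in WT and 0.10 in Cry DKO lines, where probe sets of similar mean signal (within 0.25) had medians of 0.16 and 0.17. Much of its WT spread lay in WT line 3, at 5.68, against 6.17 to 6.36 in the other WT lines. Bhlhe40 had 0.16 and 0.08, where similar probe sets had 0.09 and 0.11. Bhlhe41 had 0.23 and 0.31, where similar probe sets had 0.43 and 0.42. The SD was smaller in Cry DKO lines for 46.2% of all probe sets, and a difference of SDs over 4 lines was not tested. Within the Cry DKO group, Ciart and Bhlhe40 placed the lines in 1 order, with line 1 lowest, then 3, 2 and 4, although lines 1 and 3 (Ciart) and lines 2 and 3 (Bhlhe40) differed by under 0.01. In WT lines the orders differed: line 3 was lowest for Ciart and line 2 for Bhlhe40.

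The neighbours of these repressors in the clock moved mostly upward. Of 14 other E-box-driven clock genes 9 rose and none fell, with a median difference of 0.67, against -0.0038 over all genes, of which 2.77% were called higher (1 probe set of highest mean per gene). The 14 include Cry1 and Cry2, the targeted genes, whose differences of -0.50 and -0.34 were the only ones below 0. The list was chosen with earlier results of these data known. Per2, a period protein of the repressing complex, had 5.15 to 5.84 in WT and 8.30 to 8.52 in Cry DKO lines, a rise of 2.84 (SE 0.14, limma adjusted p = 1.11e-06). Dbp, a D-box transcription factor, rose by 2.21, and the third period gene, Per3, by 1.72 from a WT mean of 5.13, below the 40th percentile. The Ciart rise lay between those of Dbp and Per3. Macrophage markers had a median difference of 0.76 in the same lines, and with their mean as a covariate 4 of the 9 kept their call: Per2, Dbp, Nr1d2 and Tef. For the others the differences in that fit were 1.71 (SE 0.30) for Per3, 0.66 (SE 0.31) for Per1, 0.50 (SE 0.12) for Nampt, 0.49 (SE 0.13) for Wee1 and 0.47 (SE 0.09) for Tspan4. The SEs of these 5 genes in the main fit were 0.19, 0.20, 0.07, 0.08 and 0.06.

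The Bhlhe40 rise was nearest in size to the smaller ones of this list. The nuclear receptor Nr1d2 rose by 0.98, the D-box factor Tef by 0.97 and Per1 by 0.79 (SE 0.20, limma adjusted p = 0.044). Tspan4, a tetraspanin, rose by 0.56, the kinase Wee1, which delays entry into mitosis, by 0.48, and Nampt, which makes an NAD precursor, by 0.45. The 95% confidence intervals of Per1, Tspan4, Wee1 and Nampt overlapped that of Bhlhe40, and the differences between these genes were not tested. Nr1d1, a repressor of Arntl, had a difference of 0.50 that did not pass (limma adjusted p = 0.0747). Per1 lost its call in 6 of 8 fits with an array left out. WT line 3 was its lowest line, as for Ciart, and without that line Per1 kept its call at a difference of 0.56.

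Arntl fell, Clock had a difference of 0.00, and Arntl2, a paralogue of Arntl, rose. Of 5 genes of the activators and RORE targets, those controlled by the NR1D and ROR receptors, 2 fell and 1 rose, where 2.11% of all genes were called lower. Arntl went from 8.14 ± 0.11 (SD, n = 4) to 6.58 ± 0.19 with no overlap of the groups, a fall of 1.56 (SE 0.11, limma adjusted p = 3.28e-05). Nfil3, a repressor at D-boxes, fell by 0.46, and Arntl2 rose by 0.81 from a dim WT mean of 5.33. Nfil3 and Arntl2 each lost their call in 6 of 8 fits with an array left out.

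**Figure D4:**
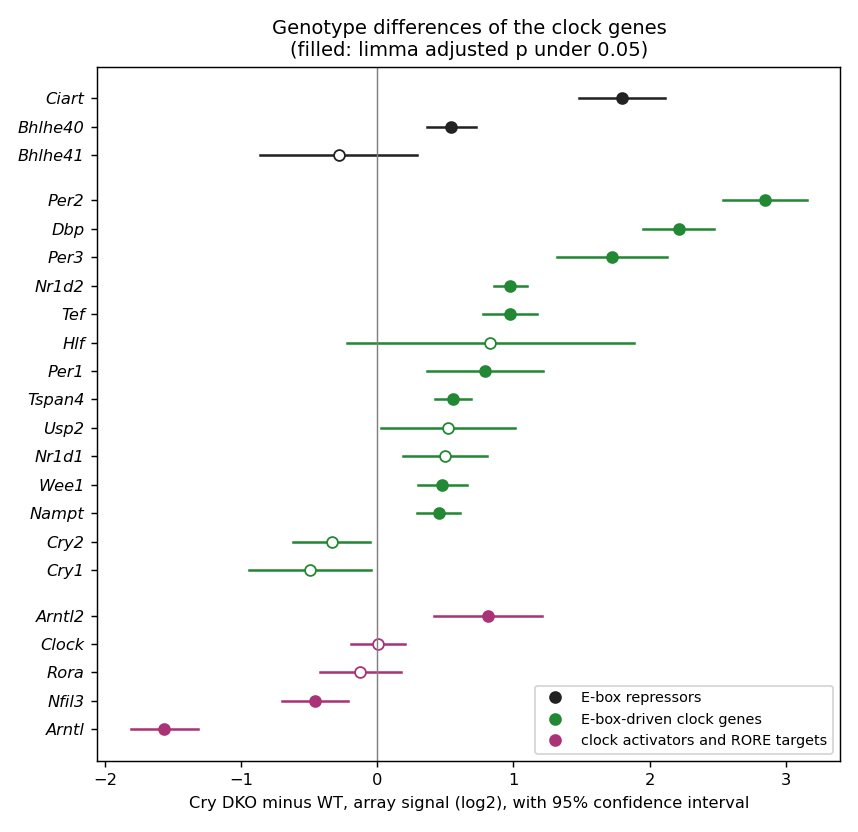
Cry DKO minus WT (log2, x axis) with 95% confidence intervals for the 3 E-box repressors (black), 14 other E-box-driven clock genes (green) and 5 activators and RORE targets (purple), filled where limma gave an adjusted p under 0.05. The green genes include the targeted Cry1 and Cry2. Ciart lies among the upper group with Dbp and Per3. Bhlhe40 has an interval that overlaps several others, among them those of Per1, Nr1d1, Tspan4, Wee1 and Nampt. The interval of Bhlhe41 spans 0.

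Among the clock genes with a promoter window, the number of CACGTG matches near the start site did not order the genes by their change. No window was matched for Bhlhe40, Per2 or Wee1. Ciart, with 3, rose by 1.80. Dbp and Per3, with none in these windows, rose by 2.21 and 1.72, and Tef, with 1 in each of its 2 windows, by 0.97. Nr1d2 and Nampt, with none, rose by 0.98 and 0.45. Per1 and Tspan4, with 1 match in 1 of 2 windows each, rose by 0.79 and 0.56. Arntl and Nfil3, with none, fell, and Arntl2, with none, rose. Cry1 and Bhlhe41, with 1 each, did not pass. Neither did Cry2, Nr1d1, Hlf, Usp2, Clock and Rora, with none. Cry1 and Cry2 are the targeted genes. Among all genes with a window, 16 held CACGTG 3 or more times in 1 window. Of those, Ciart was the only one called higher, and 1 was called lower. For genes without the letters 2.69% were called higher, for genes with 1 match 3.35% and for genes with 2 matches 2.78%.

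Other helix-loop-helix repressors were read beside Bhlhe40. Of 9 HES, HEY and ID genes measured, 1 fell and none rose, with a median of -0.22; over all genes 2.77% were called higher and 2.11% lower, and the difference from Bhlhe40 was not tested. Heyl, a NOTCH target, fell by 0.69 (SE 0.16, limma adjusted p = 0.037), a call lost in 7 of 8 fits with an array left out. None of 6 histone deacetylase and co-repressor genes passed in limma. The deacetylase Hdac1 had the smallest p among them, with a difference of 0.25 (SE 0.07, limma adjusted p = 0.0807).

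Since Bhlhe40 is also a target of the hypoxia factor HIF and all lines grew at 3% oxygen, HIF targets were read beside it. Of 21 that were measured, 3 rose and none fell, with a median of 0.16, where 2.77% of all genes were called higher. The median over all genes was -0.0038. Of the 21 differences 18 were above 0. The mean signal of the list ran from 9.42 to 9.68 in WT and from 9.70 to 9.82 in Cry DKO lines. None of the 21 was called without the intensity trend, with the macrophage covariate described below, or without any 1 of WT line 1, Cry DKO line 3 and Cry DKO line 4. Pdk1, a kinase that restrains pyruvate oxidation, rose by 0.53, Egln3, a HIF prolyl hydroxylase, by 0.36 and Slc2a1, which encodes a glucose transporter, by 0.27. With an array left out, Pdk1 lost its call in 4, Egln3 in 7 and Slc2a1 in 6 of 8 fits. The part of HIF in the Bhlhe40 rise was not tested.

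Profiles most like those of the called members were sought among 9514 genes above the 40th percentile, by the root mean square distance between log2 profiles over the 8 arrays, each centred on its own mean. For Bhlhe40 the nearest were Hells, a chromatin remodeller (distance 0.04), Rrm2, a subunit of ribonucleotide reductase (0.06), Mad2l1, a spindle checkpoint protein (0.06), Shcbp1 (0.07) and Cep55, a protein of cell abscission (0.07). These 5 genes rose by 0.51 to 0.59, and each had its lowest value in WT line 2, as had Bhlhe40. Both traits follow from the choice by distance and are not a separate result. For Ciart the distances were larger. Dbp was nearest (0.36), followed by Srgn, a proteoglycan of blood cell granules (0.37), Bckdhb, a subunit of the branched-chain ketoacid dehydrogenase (0.40), Lars2, a mitochondrial leucyl-tRNA synthetase (0.40), and the pseudogene Hmga2-ps1 (0.44), whose signal may include the near-identical parent gene. The floor sets this order: with all 13306 other genes as candidates, a choice made after seeing the data, Per3 was nearest to Ciart (0.18), its mean signal of 5.99 lying just below the 40th percentile. Then came Clec4e (0.30), a lectin of myeloid cells, and Krt8 (0.35), a keratin, both dim, before Dbp. For Bhlhe40 the same 5 genes were nearest without the floor.

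Markers of macrophages and blood cells moved with genotype in the same arrays. Of 18 markers, all on the table, 7 rose and none fell, where 2.77% of all genes were called higher and 2.11% lower. All 18 differences were above 0, with a median of 0.76, and none of the 18 markers lay below the 40th percentile. Their mean signal ran from 8.05 to 8.67 in WT and from 8.73 to 9.68 in Cry DKO lines (summed log2 signal 144.9 to 156.0 and 157.1 to 174.3). In RNA from whole cultures, more cells of a type and more RNA per cell cannot be told apart. With the marker mean as a covariate, which itself differs between genotypes, the Ciart difference was 1.79 (SE 0.24, limma adjusted p = 0.012). The Bhlhe40 difference was 0.49 (SE 0.13), and its call ended (limma adjusted p = 0.177). The number of probe sets called fell from 992 to 25 in that fit. The part of these cells in the Bhlhe40 rise was not tested further.

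**Figure D5:**
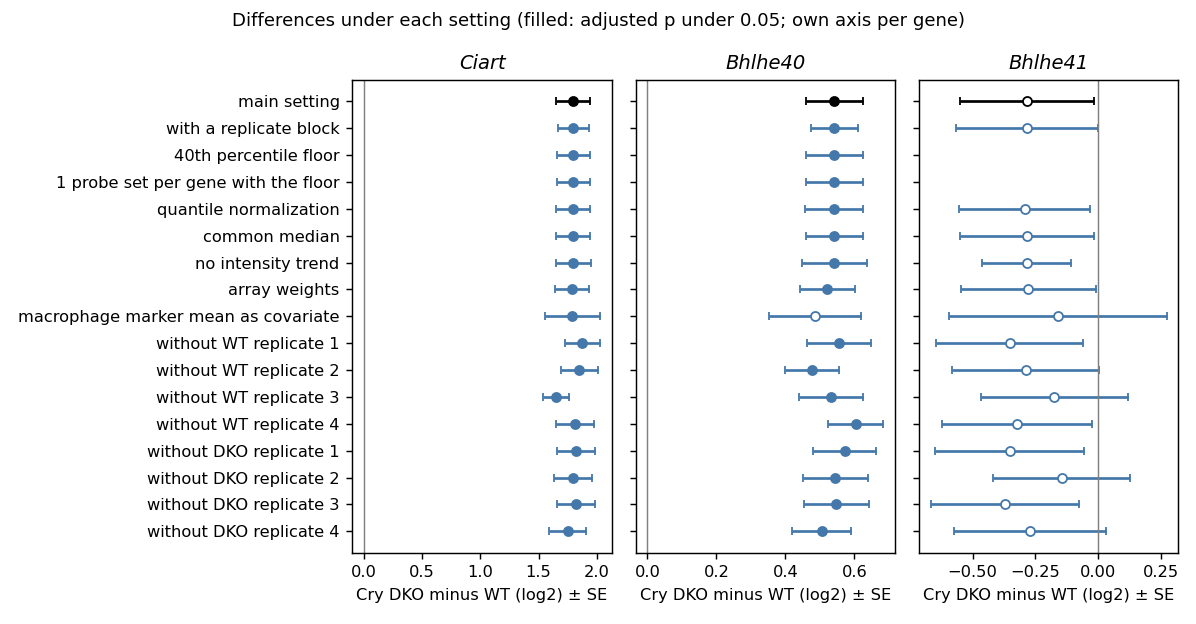
Cry DKO minus WT (log2, own x axis per gene) ± SE for Ciart, Bhlhe40 and Bhlhe41 under the main setting (black) and each alternative (blue), filled where the limma adjusted p was under 0.05. Ciart is called in every fit drawn, Bhlhe40 in every one but the fit with the macrophage covariate, and Bhlhe41, which the settings with a floor leave out, in none.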

How the data were processed

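Total RNA was labelled from 5 ug and hybridised to an Affymetrix 3' expression array, per the labels' protocols. The authors deposited log2 values (the base is inferred from their range). The submitters' processing notes name GCOS. The labels do not state the probe summary or the normalisation. Array medians lay between 6.78 and 6.79, so values were used as deposited, and no array duplicated another. Of 30506 probe sets, 61 were controls, 658 had several genes, 4949 are unnamed here and 24838 had 1 gene. Identifiers of 24757 were found in GRCm38.p6, used only for symbols.

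Groups and replicate numbers came from sample titles. All 24838 probe sets were fitted with limma 3.58.1 in R 4.3.3 (intensity trend, no covariate, no floor), so that every member had a value, and single values were tested by exact permutation. The code was tested on simulated data. Each member gene has 1 probe set, so the planned test between probe sets of 1 gene was not possible. No detection calls were used, and the number of arrays limits the precision. Members and lists were chosen with earlier results of these data known. Named genes were: the members; Per1, Per2, Nr1d1, Dbp, Arntl and called genes of the 2 clock lists; up to 3 called genes, or else the gene of smallest p, per other pathway list; and the 5 nearest profiles of each called member. Cry1, Cry2, Clock, Hlf, Usp2, Rora, Pdgfra, Dcn, Lum, Krt8 and Clec4e stand outside this rule. Marker lists covered fibroblasts, macrophages and blood, endothelium, epithelium, neural and glial cells and skeletal muscle; of the last 3, Krt8 alone was called (higher), of 4, 4 and 2 genes on the table. Alternatives were a replicate block, a floor, 1 probe set per gene, quantile or median normalisation, no trend, array weights, a macrophage covariate and leaving out each array.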

Additional observations from a re-analysis of the deposited data

Results flagged for a closer look

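In 5 of 64 groups of 4 lines, over Cry1, Cry2 and the genes named by rule, 1 line stood apart from the other 3 by more than the 95% critical value of Dixon's test, where chance gives about 1 in 20. None was a group of Ciart, Bhlhe40 or Bhlhe41. Per1 had 5.90 in WT line 3, against 6.79 to 6.84 in the other WT lines. Nampt had 8.29 in WT line 4, against 8.14 to 8.16. Heyl had 6.20 in WT line 4, against 6.78 to 6.87. Cep55 had 8.57 in WT line 2, against 8.73 to 8.76. Nr1d2 had 10.94 in Cry DKO line 2, against 11.01 to 11.03 in the others.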

How the results depend on the processing

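Ciart kept its call in all 16 alternatives, with differences from 1.65 to 1.88 (1.65 to 1.88 without 1 array). Bhlhe40 kept its call in 15 of 16 (0.48 to 0.60 without 1 array) and lost it with the macrophage covariate (0.49, adjusted p = 0.177). Without the intensity trend Bhlhe40 passed only narrowly (limma adjusted p = 0.0483). Bhlhe41 passed in none of 14 (-0.37 to -0.14 without 1 array), and settings with a floor gave it no value. Differences between genes ran, without 1 array, from 1.12 to 1.37 for Ciart and Bhlhe40, 1.83 to 2.23 for Ciart and Bhlhe41 and 0.69 to 0.93 for Bhlhe40 and Bhlhe41, where the fit without Cry DKO line 2 missed the threshold (adjusted exact p = 0.0571). Probe sets called numbered 992 in the main fit, 265 without the intensity trend, 25 with the macrophage covariate and 467 to 738 without 1 array, lowest without WT line 3; the cause was not tested, and leaving out an array leaves fewer samples. With a replicate block 1324 were called, and Ciart and Bhlhe40 kept their calls (adjusted p = 0.000398 and 0.00378). Deviations of arrays with the same number correlated at 0.01 to 0.09, not above 0.1, so the numbers were not taken as pairs. Arrays with different numbers correlated at -0.06 to 0.03. WT lines 1, 2 and 3 correlated best with their own number, and WT line 4 did not. Macrophage adjustment left 4 of the 9 other E-box clock genes called. Calls were lost by Per3 (1.71 against 1.72 in the main fit), Wee1 (0.49 against 0.48) and Nampt (0.50 against 0.45). Per1 (0.66 against 0.79) and Tspan4 (0.47 against 0.56) also lost theirs. The SE of each of these genes was larger in that fit, and the cause was not tested. A dim signal limits Bhlhe41.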
